A study of Mus musculus with 6 samples.

Results

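The SREBP2 group described here comprised 7 genes of cholesterol synthesis and its control, Srebf2, Hmgcs1, Idi1, Fdps, Sqle, Cyp51 and Insig1, taken by gene symbol from the 55487 genes of the count table. Each symbol had 1 row. They were followed in RNA-seq libraries of colonic intestinal epithelial cells (IECs) from mice given dextran sodium sulphate (DSS), which damages the lining of the colon and brings on colitis. The control arm held 3 libraries of Nsd2 f/f mice (labelled WT), which carry loxP sites around Nsd2, a gene for a histone methyltransferase, and still express it. The other 3 came from Nsd2 Vil-KO mice (labelled NSD2-FF-VILCRE), in which the same floxed alleles are combined with Cre under the Villin promoter, so that Nsd2 is removed in intestinal epithelium and not in other cell types. According to the methods, all mice were on a C57BL/6J background with littermates as controls, colitis was induced at 2 months of age with 2% DSS for 5 days, and IECs were shaken off colon pieces after EDTA. The day on which cells were taken for RNA-seq is not stated in the sources used here, and without a sort the preparation can hold other cells. In such bulk samples, fewer cells of a type and less RNA per cell cannot be told apart.

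Cholesterol is built from acetyl-CoA by a long chain of enzymes, and SREBP2, the product of Srebf2, is the transcription factor that drives their genes. SREBP2 is made as a membrane protein of the endoplasmic reticulum. When membrane sterol is low, SCAP carries it to the Golgi, where proteases release its transcription factor domain, and when sterol is plentiful, INSIG proteins hold the SCAP complex back. The colonic epithelium renews itself quickly, and dividing cells need sterol for new membranes and prenyl groups for their GTPases.

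The 7 genes were placed on GRCm38 with the GENCODE vM21 annotation. Srebf2 (ENSMUSG00000022463) lies on chromosome 15 from 82147181 to 82205379, and Sqle (ENSMUSG00000022351) on the same chromosome from 59315077 to 59331192. Hmgcs1 (ENSMUSG00000093930) lies on chromosome 13 from 119690379 to 119708260 and Idi1 (ENSMUSG00000058258) on chromosome 13 from 8885501 to 8892451. Cyp51 (ENSMUSG00000001467) lies on chromosome 5 from 4081145 to 4104746 and Insig1 (ENSMUSG00000045294) on chromosome 5 from 28071363 to 28078662. Fdps (ENSMUSG00000059743) lies on chromosome 3 from 89093588 to 89101959. All 7 are protein coding, and the counts cover their exons as a whole.

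Promoters from RefSeq (GRCm38.p6) were at hand for 5 of the 7 genes. They are shown because the group is defined by a shared regulator. The 250 bases before the RefSeq start were searched on both strands for TCACNCCAC, a form of the sterol regulatory element. They were also searched for TCACCNCA, a shorter pattern with its free base N at another place. The other patterns were CCAAT and GGGCGG, the boxes of NF-Y and Sp1, which are known partners of SREBPs, and the E-box CACGTG. TCACNCCAC and TCACCNCA can match the same stretch, as they did in Hmgcs1, but neither contains the other. TCACCNCA was set after these promoters had been read, so its matches among them are no test of the pattern. TCACNCCAC matched in Hmgcs1 alone among the 5, and in 1.05% of all 32851 promoter windows. TCACCNCA matched in 3 of the 5 (Srebf2, Hmgcs1 and Cyp51), a count open to that choice, and in 3.61% of all windows. CCAAT and GGGCGG each matched in all 5, against 33.8% and 32.7% of all windows, and CACGTG in Insig1, against 6.02%. Among the other sterol synthesis enzymes described further on, 12 of the 13 with a window held CCAAT and 12 held GGGCGG, whereas 1 held TCACCNCA. In further lists described below, GGGCGG matched in 5 of 6 windows for SREBP processing and 5 of 8 for isoprenoid branches. It matched in 5 of 9 for fatty acid synthesis and 3 of 5 for LXR response. CCAAT matched in 2 of 6, 3 of 8, 5 of 9 and 3 of 5 of these windows, in that order. For sterol uptake GGGCGG matched in 1 of 2 and CCAAT in 2 of 2. A match of letters is a description and not a measured binding site.

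The stretches of these windows that lie before any annotated exon are printed 5′ to 3′ in the direction of the gene, with capitals marking TCACCNCA and the CCAAT box, which reads as ATTGG where it lies on the opposite strand. Srebf2 is shown for chr15:82147019-82147180 (plus strand), where TCACCCCA starts 162 bases before the RefSeq start. Hmgcs1 is shown for chr13:119690101-119690350 (plus strand), with TCACCCCA at 137 bases and 3 CCAAT boxes. Cyp51 is shown for chr5:4104747-4104947 (minus strand), with TCACCTCA at 88 bases, while its CCAAT box, at 29 bases, lies in the first exon and is not printed. Insig1 is shown for chr5:28071162-28071362 (plus strand) as a promoter without TCACCNCA, its CCAAT box lying at 216 bases. Idi1 also lacked TCACCNCA and is not printed, since its window began within an annotated exon.
Srebf2: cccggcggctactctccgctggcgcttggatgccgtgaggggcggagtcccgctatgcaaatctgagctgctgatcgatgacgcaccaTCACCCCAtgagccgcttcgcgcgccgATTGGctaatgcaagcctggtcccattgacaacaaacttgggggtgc
Hmgcs1: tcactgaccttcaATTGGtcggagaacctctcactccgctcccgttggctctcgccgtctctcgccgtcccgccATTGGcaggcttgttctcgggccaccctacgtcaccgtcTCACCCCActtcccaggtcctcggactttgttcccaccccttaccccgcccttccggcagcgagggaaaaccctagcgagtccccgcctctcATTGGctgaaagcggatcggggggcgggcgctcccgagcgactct
Cyp51: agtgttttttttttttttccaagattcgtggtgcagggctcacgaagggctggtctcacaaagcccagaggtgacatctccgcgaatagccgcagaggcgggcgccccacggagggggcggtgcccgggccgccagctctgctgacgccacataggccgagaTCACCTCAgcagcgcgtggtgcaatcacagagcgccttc
Insig1: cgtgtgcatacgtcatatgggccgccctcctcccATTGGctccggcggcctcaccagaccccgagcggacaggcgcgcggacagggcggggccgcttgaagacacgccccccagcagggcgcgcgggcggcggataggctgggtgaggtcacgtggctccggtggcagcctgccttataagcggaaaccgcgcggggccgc

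The libraries held between 15439123 and 20350539 counted reads. Values are given as CPM (counts scaled to the TMM-normalised library size) and, where genes are compared with each other, as RPKM, the CPM per kilobase of exon. The quasi-likelihood test of edgeR was run over the 14650 genes that passed the filter on low counts. All 7 genes of the group passed it. The screening criterion was a fold change above 1.2 with an unadjusted p below 0.05, and 482 genes (3.29%) met it. With Benjamini-Hochberg adjustment 0 genes (0%) had an adjusted p below 0.05 in edgeR, where 482 had an unadjusted p below 0.05, while DESeq2 found 4 and limma 0. The labels do not say whether libraries of a genotype came from separate mice, so p-values measure only the spread between these libraries. Nsd2, the targeted gene, measured 47.9, 51.2 and 24.6 CPM in Nsd2 f/f and 24.2, 10.4 and 20.8 CPM in Nsd2 Vil-KO (log2 fold change −1.16, standard error 0.39, adjusted p = 0.992, edgeR). The genotypes did not overlap (exact permutation test, two-sided, p = 0.1, the smallest that 3 libraries against 3 allow), although the lowest control value, in replicate 3, was only just above the highest of Nsd2 Vil-KO.

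Nsd2 f/f replicate 3 and Nsd2 Vil-KO replicate 2 stood apart from the other libraries. These held 4296 and 3684 counts of Xist, the RNA that coats the inactive X chromosome in female cells, whereas the other 4 held between 1 and 5. Nsd2 f/f replicate 3 also had 19.6% of its counts on mitochondrial genes, against 5.51% to 9.13% in the other 5. The log2 fold change of each of the 7 genes is therefore also given for the 4 libraries without Xist and for the pair with it, where 1 library stands against 1 and has no error, and the counts of each list for the 4 libraries. The 7 epithelial markers (among them Epcam and Vil1) were detected in every library and summed to between 11358 and 17336 CPM.

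The 7 genes were well expressed apart from Fdps. Hmgcs1, the cytosolic synthase that makes HMG-CoA at the start of the pathway, led with a mean of 80.7 ± 30.5 RPKM (SD over all 6 libraries), the 95.4th percentile of the genes tested. Cyp51, the lanosterol demethylase, followed with 51.4 ± 13.4 RPKM, Srebf2 with 46.7 ± 6.73 RPKM and Insig1 with 44.2 ± 10.7 RPKM. Sqle, the squalene epoxidase that opens the sterol branch to oxygen, had 33.6 ± 8.15 RPKM and Idi1, the isomerase of isopentenyl diphosphate, 17.9 ± 4.40 RPKM. Fdps, the farnesyl diphosphate synthase at the fork between sterols and prenyl groups, stood last with 2.84 ± 0.76 RPKM, at the 39.1st percentile. Hmgcs1 was above Cyp51, Sqle above Idi1 and Idi1 above Fdps in all 6 libraries. Cyp51 exceeded Srebf2, and Srebf2 exceeded Insig1, in 4 of 6 libraries each, and Insig1 exceeded Sqle in 5, so the order within the middle of the list did not hold in every library.

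The low level of Fdps has a limit. A second coding gene of the annotation, Gm43738, overlaps exons of Fdps on the same strand and was listed with 0 counts in all 6 libraries. Of the 100-base stretches of the Fdps transcripts, 21.4% also occur in transcripts of other genes. Gm3571 and Gm5873, which share such stretches, held between 269 and 497 and between 43 and 120 counts per library, while Fdps itself held between 123 and 347. Idi1 shares 21.9% of its stretches, mostly with Gm13502, but the genes that share them made up 0.689% of the counts when all libraries and these genes were summed. Hmgcs1 shares 8.22% with 2 other genes, mostly the antisense gene Gm48342, and Cyp51 1.51% with Akap9, while Srebf2, Sqle and Insig1 share 0%. The program that counted reads, and its use of strand, are not given in the sources used here.

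None of the 7 genes met the screening criterion between the genotypes, beside 3.29% of all genes. By CPM, the mean was lower in Nsd2 Vil-KO for 5 of them (Hmgcs1, Idi1, Sqle, Cyp51 and Insig1) and higher for Srebf2 and Fdps, and the genotypes overlapped for every one of the 7. Among all genes tested, the genotypes did not overlap in 9.9%. The median log2 fold change of the group was −0.24, with a range from −0.61 to 0.28, against 0.0012 over all genes tested. All adjusted p-values lay between 0.992 and 0.996 (edgeR). Leaving out Nsd2 Vil-KO replicate 2 brought the median to −0.014 and leaving out Nsd2 Vil-KO replicate 3 brought it to −0.46.

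**Figure D1:**
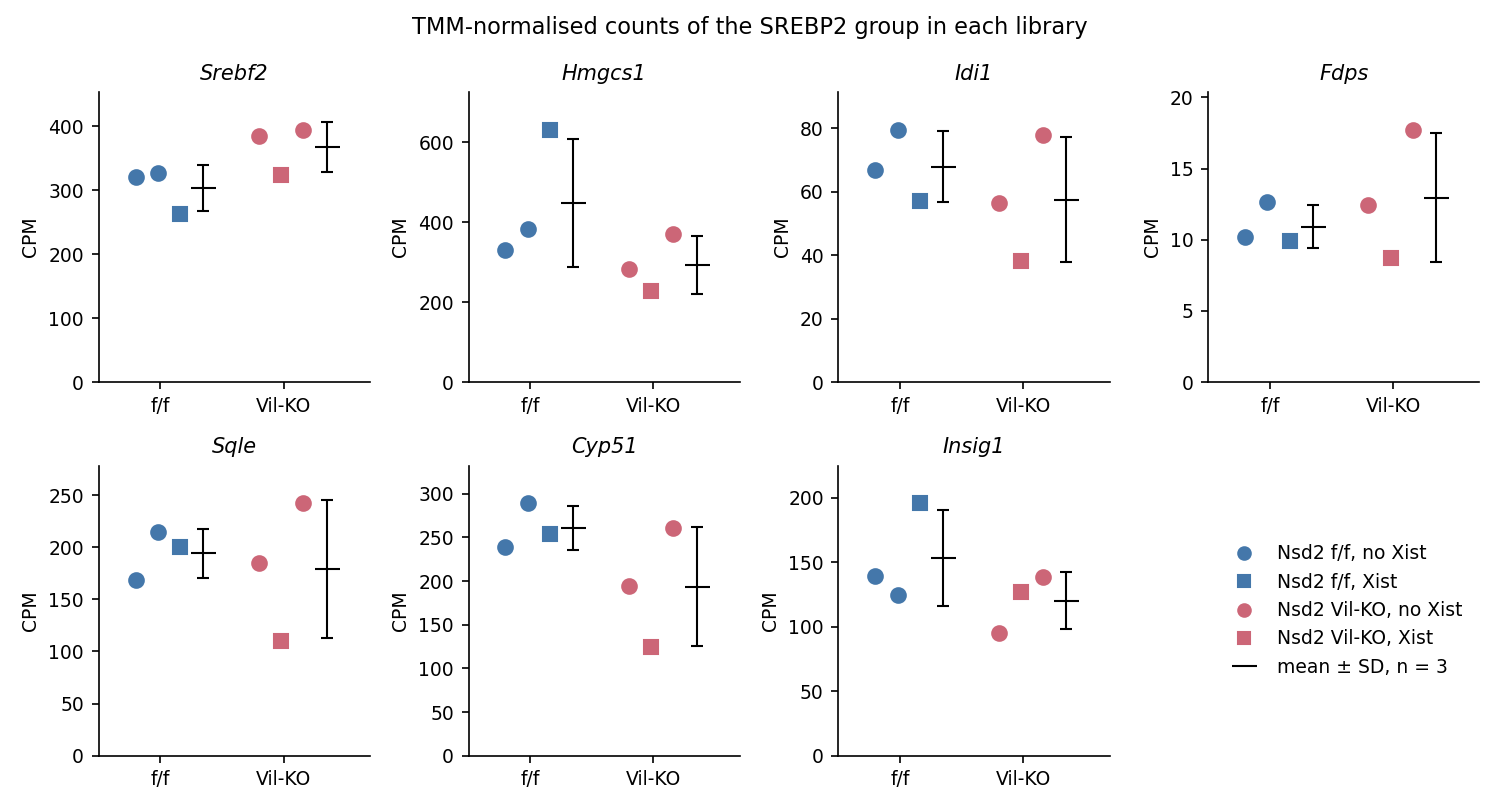
TMM-normalised CPM (y axis, from 0) of each of the 7 genes in the 3 Nsd2 f/f and 3 Nsd2 Vil-KO libraries, with squares for the libraries that held Xist and black bars for the mean ± SD of a genotype. The genotypes overlap in every panel, and the Nsd2 Vil-KO library with Xist is the lowest of all 6 for Hmgcs1, Idi1, Fdps, Sqle and Cyp51.

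Srebf2, the gene of the regulator itself, had 321, 327 and 263 CPM in the Nsd2 f/f libraries 1, 2 and 3 (303.8 ± 35.6, SD, n = 3). Its values in Nsd2 Vil-KO were 385, 323 and 395 CPM (368 ± 38.7, SD, n = 3). Nsd2 Vil-KO replicate 2 fell between Nsd2 f/f replicates 1 and 2, so that the genotypes overlapped by this single library. The log2 fold change was 0.28 with a 95% interval from −0.20 to 0.75 (adjusted p = 0.992, edgeR; exact permutation test, two-sided, p = 0.2). Srebf2 was higher in Nsd2 Vil-KO by similar amounts with and without Xist, at 0.28 in the 4 libraries without it and 0.30 in the pair with it. In the 4 libraries its standard error was 0.10 and it met the screening criterion (adjusted p = 0.426, edgeR), as the only 1 of the 7, while 11% of all genes met it there.

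Hmgcs1 had 331, 382 and 631 CPM in Nsd2 f/f (448 ± 160.2, SD, n = 3). Nsd2 Vil-KO libraries held 282, 227 and 369.9 CPM (293 ± 72.1, SD, n = 3). The highest and the lowest of the 6 values were those of the libraries with Xist, and Nsd2 Vil-KO replicate 3 exceeded Nsd2 f/f replicate 1. The log2 fold change was −0.61 (95% interval −1.36 to 0.14, adjusted p = 0.992, edgeR). It was −0.12 ± 0.15 (standard error) in the 4 libraries without Xist and −1.48 between the pair with it.

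Idi1 measured 66.8, 79.5 and 57.1 CPM in Nsd2 f/f (67.8 ± 11.2, SD, n = 3) and 56.5, 38.3 and 77.8 CPM in Nsd2 Vil-KO (57.5 ± 19.8, SD, n = 3). The lowest library was Nsd2 Vil-KO replicate 2 and the 2 highest were 1 of each genotype. Its log2 fold change was −0.24 (95% interval −0.90 to 0.42, adjusted p = 0.992, edgeR). It was −0.12 ± 0.17 (standard error) in the 4 libraries without Xist and −0.58 between the pair with it. Without Nsd2 Vil-KO replicate 2 it came to −0.014, and without Nsd2 Vil-KO replicate 3 to −0.52.

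For Fdps the Nsd2 f/f libraries had 10.2, 12.6 and 9.94 CPM (10.9 ± 1.49, SD, n = 3) and the Nsd2 Vil-KO libraries 12.4, 8.71 and 17.7 CPM (13.0 ± 4.53, SD, n = 3). Both the highest and the lowest value belonged to Nsd2 Vil-KO. Its log2 fold change was 0.25 (95% interval −0.50 to 0.99, adjusted p = 0.993, edgeR). The direction was not stable. The 4 libraries without Xist gave 0.41 ± 0.23 (standard error) and the pair with it −0.19. It was −0.047 without Nsd2 Vil-KO replicate 3, and −0.23 when the counts of Gm43738, Gm3571 and Gm5873, which made up 67.8% of the sum, were added to those of Fdps (chosen after the data were seen).

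Sqle had 168, 214 and 199.9 CPM in Nsd2 f/f (194 ± 23.5, SD, n = 3). In Nsd2 Vil-KO it had 185, 110.0 and 242 CPM (179 ± 66.2, SD, n = 3). Here too the extremes of all 6 libraries were both Nsd2 Vil-KO, with replicate 2 lowest and replicate 3 highest. The log2 fold change of −0.12 (95% interval −0.82 to 0.59, adjusted p = 0.996, edgeR) turned to 0.17 in the 4 libraries without Xist and to 0.14 without Nsd2 Vil-KO replicate 2 alone, whereas the pair with Xist gave −0.86.

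Cyp51 had 239, 289 and 254 CPM in Nsd2 f/f (261 ± 25.5, SD, n = 3), the narrowest relative spread of the enzymes in that genotype. Its values in Nsd2 Vil-KO were 195, 125 and 261 CPM (193 ± 68.2, SD, n = 3). Nsd2 Vil-KO replicates 1 and 2 lay below all Nsd2 f/f libraries and replicate 3 lay among them. The log2 fold change was −0.43 (95% interval −1.11 to 0.24, adjusted p = 0.992, edgeR). Without Nsd2 Vil-KO replicate 3 it was −0.71 and met the screening criterion, with the remaining libraries 3 against 2. Without Nsd2 Vil-KO replicate 2 it was −0.19, and it was −0.20 ± 0.17 (standard error) in the 4 libraries without Xist and −1.03 between the pair with it, so that the size of the difference depended on the library left out.

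Insig1, which encodes the retention protein that closes the feedback loop and is itself an SREBP target, had 139.5, 124 and 196 CPM in Nsd2 f/f (153 ± 37.5, SD, n = 3). Nsd2 Vil-KO libraries had 95.3, 127 and 138 CPM (120.2 ± 22.3, SD, n = 3). Unlike the enzymes, it was lowest in Nsd2 Vil-KO replicate 1 and not in replicate 2, and the highest value was that of Nsd2 f/f replicate 3. Its log2 fold change was −0.35 (95% interval −0.92 to 0.22, adjusted p = 0.992, edgeR). The 4 libraries without Xist gave −0.17 ± 0.18 (standard error) and the pair with it −0.62. Leaving out Nsd2 f/f replicate 3 brought the difference to −0.13.

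**Figure D2:**
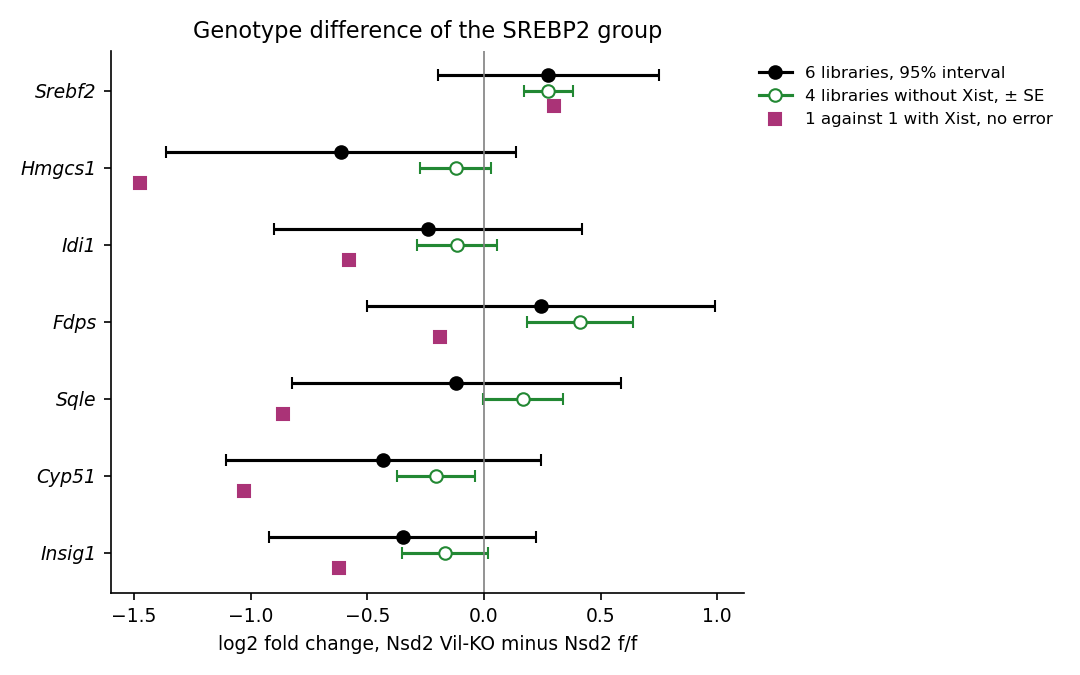
Log2 fold change of each of the 7 genes (x axis, Nsd2 Vil-KO minus Nsd2 f/f) from all 6 libraries with its 95% interval (black), from the 4 libraries without Xist ± standard error (green) and between the single libraries with Xist (purple squares, no error). All black intervals include 0, and the purple square lies left of the green point for every gene but Srebf2, farthest for Hmgcs1 (−1.48 against −0.12).

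The difference between the Xist pair and the other 4 libraries was itself tested with an interaction term in edgeR, an analysis in which the single libraries with Xist are assumed to vary like the others. For Hmgcs1 the genotype difference was lower by 1.35 on the log2 scale in the pair with Xist, as coded −1.35 (adjusted p = 0.0245). Sqle (−1.02, adjusted p = 0.0790) and Cyp51 (−0.82, adjusted p = 0.121) had the next largest terms and Srebf2 the smallest (0.033, adjusted p = 0.926). Over all genes tested, 12% had an adjusted p below 0.05 for this term, so that 1 of 7 is near the background. The term was below 0 for 6 of the 7 genes and for 7068 of 14650 genes.

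Nsd2 Vil-KO replicate 2 held the lowest value of the 6 libraries for 5 of the 7 genes (71.4%), while it was the lowest for 29.2% of all genes tested. Nsd2 Vil-KO replicate 3 was the highest for Srebf2, Fdps and Sqle. The summed CPM of the 7 genes was 1276, 1429 and 1610 in Nsd2 f/f and 1211, 959 and 1501 in Nsd2 Vil-KO. Marker genes of other states moved along with these sums in part. In Nsd2 Vil-KO replicate 2 the 5 crypt stem cell markers summed to 10.2 CPM and the 8 proliferation markers to 428 CPM. In Nsd2 f/f replicate 3 these sums were 59.9 and 236 CPM, although the 7 genes had their highest sum there. The remaining 4 libraries had between 118 and 146 CPM of stem cell markers and between 819 and 1086 CPM of proliferation markers. Olfm4, a stem cell marker, was at 0 counts in Nsd2 f/f replicate 3 and had at most 15 in any library, and no other marker was at 0 anywhere. The 10 leukocyte markers summed to 773, 174 and 25.9 CPM in Nsd2 f/f and 211, 1003 and 79.4 CPM in Nsd2 Vil-KO. Nsd2 Vil-KO replicate 2 was highest through S100a8 and S100a9, with 574 and 405 CPM. The other 8 leukocyte markers summed to 218, 93.4 and 18.1 CPM in Nsd2 f/f and 129, 24.3 and 46.9 CPM in Nsd2 Vil-KO, low in both libraries with Xist (a split made after the values were seen). The 10 stromal, muscle and vascular markers ranged from 9.61 to 268 CPM in Nsd2 f/f and from 8.54 to 78.7 CPM in Nsd2 Vil-KO. The 6 absorptive colonocyte markers summed to 7041 CPM in Nsd2 f/f replicate 3, against 2395 to 3400 CPM elsewhere. The 6 goblet cell markers ranged from 11825 to 14709 CPM in Nsd2 f/f and from 7132 to 9541 CPM in Nsd2 Vil-KO, and the 6 enteroendocrine and tuft cell markers from 35.9 to 54.0 CPM over all libraries. Between the genotypes 1 of 6 goblet cell markers and 1 of 9 tested stromal markers met the screening criterion, both lower in Nsd2 Vil-KO, and 0 of the other marker lists, where 3.29% of all genes met it. In the 4 libraries without Xist, where 11% of all genes met it, 4 of 6 goblet cell markers and 1 of 4 tested stem cell markers were lower, 2 of 6 absorptive colonocyte markers and 2 of 6 enteroendocrine and tuft cell markers were higher, and 0 of the epithelial, proliferation, leukocyte and stromal markers met the criterion. The part of these cell populations in the sterol gene values was not tested.

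**Figure D3:**
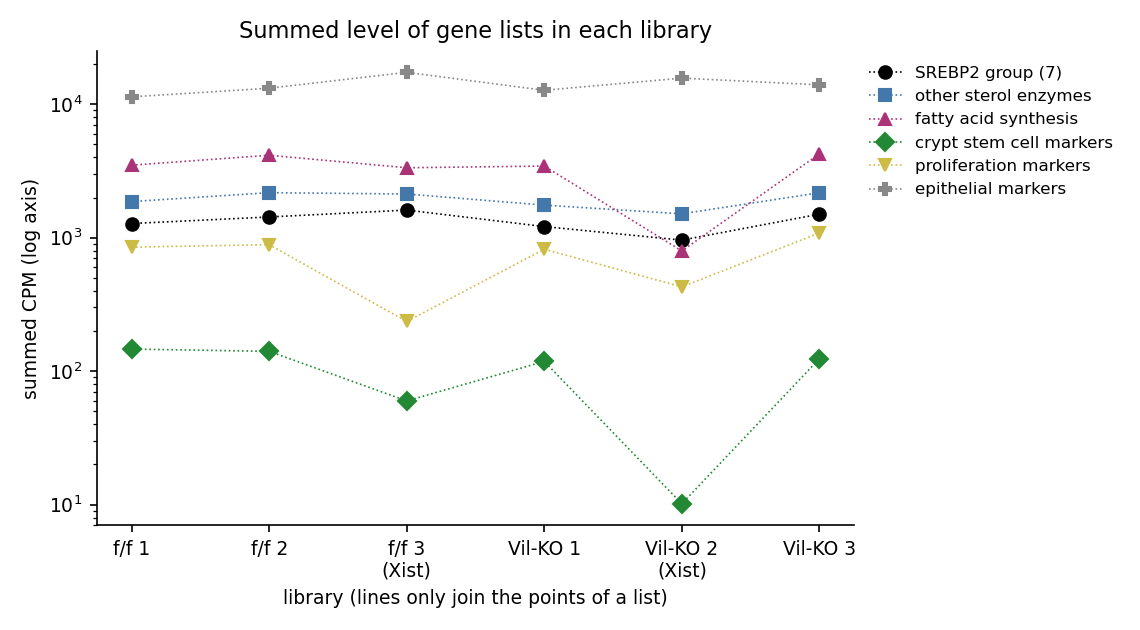
Summed CPM (y axis, log scale) of the SREBP2 group, 2 related gene lists and 3 marker lists in each of the 6 libraries, where lines only join the points of a list. In Nsd2 Vil-KO replicate 2 the SREBP2 group is at 959 CPM and the fatty acid synthesis genes at 795 CPM, below the other libraries, while the epithelial markers stay between 11358 and 17336 CPM.

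The mean of Srebf2 was higher in Nsd2 Vil-KO and that of 5 of its 6 targets lower, so the level of each target was also expressed relative to Srebf2 in the same library, a quantity that does not depend on the normalisation (chosen after the values were seen). For Hmgcs1 the ratio of CPM was 1.03, 1.17 and 2.40 in Nsd2 f/f and 0.732, 0.701 and 0.938 in Nsd2 Vil-KO. For Cyp51 it was 0.746, 0.882 and 0.967 against 0.505, 0.385 and 0.662, and for Idi1 0.208, 0.243 and 0.217 against 0.147, 0.118 and 0.197. In these 3 of the 6 targets each Nsd2 Vil-KO library lay below each Nsd2 f/f library. Sqle, with 0.524, 0.654 and 0.761 against 0.479, 0.340 and 0.613, overlapped, as did Fdps and Insig1. Over all genes tested, 16.5% lay lower in Nsd2 Vil-KO without overlap on this scale, since Srebf2 itself was higher there. These ratios were not tested.

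The rest of the sterol pathway was followed with 16 further enzymes from acetyl-CoA to cholesterol. By the same test 1 of 16 met the screening criterion, where 3.29% of all genes met it. This was Mvk, the mevalonate kinase, with 49.1, 61.5 and 63.7 CPM in Nsd2 f/f and 37.8, 33.1 and 50.6 CPM in Nsd2 Vil-KO. The log2 difference between genotypes was −0.52 ± 0.22 (standard error; adjusted p = 0.992, edgeR). The count of 1 went to 0 when Nsd2 f/f replicate 2 or 3, or Nsd2 Vil-KO replicate 1 or 2, was left out, and to 2 without Nsd2 Vil-KO replicate 3. The median of the list was −0.27, with 13 of 16 below 0, beside −0.24 in the SREBP2 group. Over all genes tested, 7304 of 14650 lay below 0. Mvd, which makes isopentenyl diphosphate, had 116, 151 and 155 CPM in Nsd2 f/f and 103, 64.5 and 119.9 CPM in Nsd2 Vil-KO (log2 fold change −0.55, standard error 0.26). Sc5d, a late desaturase, was the enzyme whose genotypes did not overlap, with 82.2, 90.9 and 84.1 against 70.0, 47.2 and 79.8 CPM (log2 fold change −0.38, standard error 0.22). Among all genes tested, 9.9% did not overlap. Nsdhl, a demethylating dehydrogenase, differed by −0.24 ± 0.18 (log2, standard error). In the 4 libraries without Xist 0 of 16 met the criterion, beside 11% of all genes. There 8 lay below 0 and the median was −0.030.

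**Figure D4:**
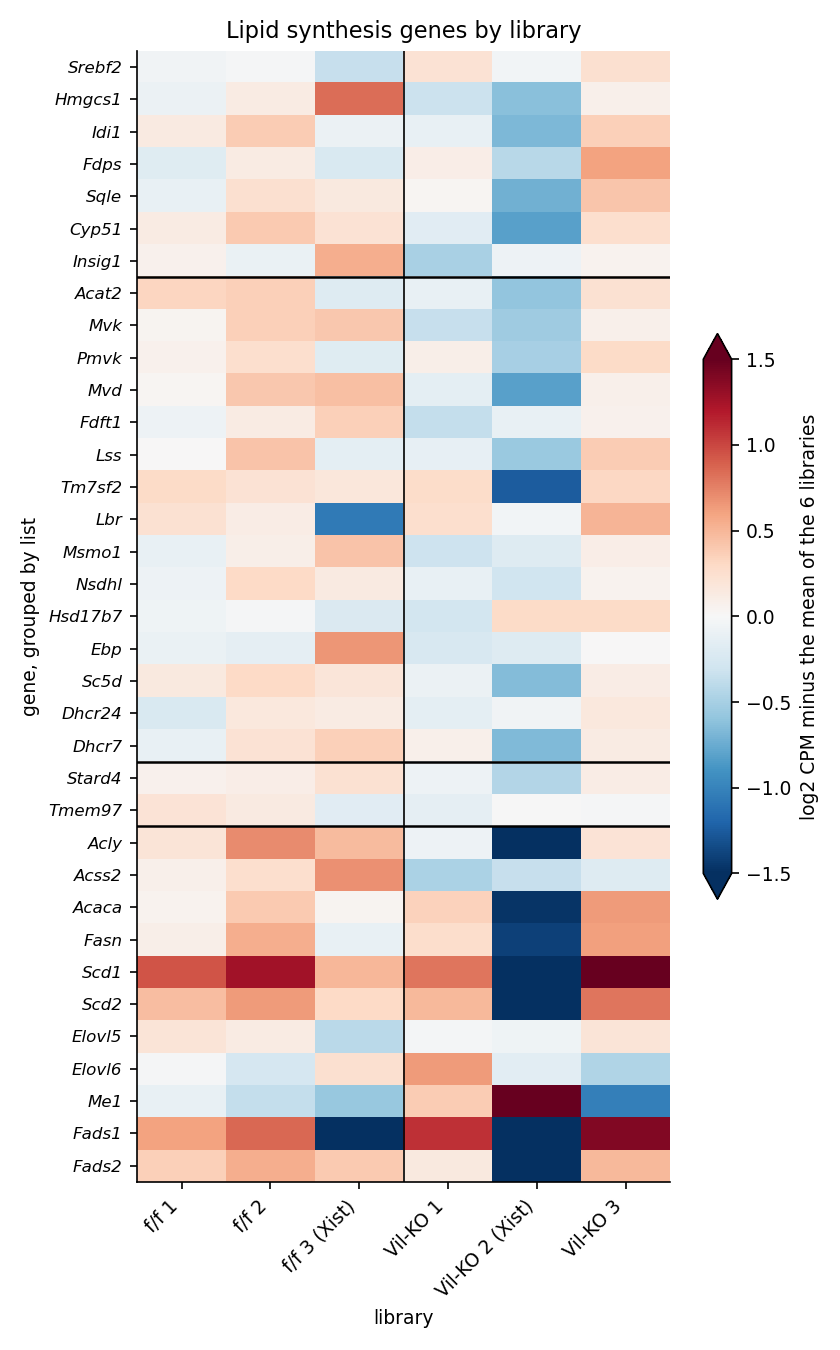
Log2 CPM of each gene minus its mean over the 6 libraries (colour, cut at ±1.5) for the SREBP2 group and the genes shown of 3 lists (other sterol synthesis enzymes, sterol uptake and fatty acid synthesis), separated by black lines. The column of Nsd2 Vil-KO replicate 2 is blue for most rows, whereas Hmgcs1 and Insig1 are at their reddest in Nsd2 f/f replicate 3.

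Genes that process SREBPs or restrain them, listed together with Srebf1, the gene of SREBP1, lay on both sides of 0 between the genotypes. None of 9 met the screening criterion, beside 3.29% of all genes. The median log2 fold change was −0.0098 and the range ran from −0.17 to 0.36. In the 4 libraries without Xist 0 of 9 met the criterion, beside 11% of all genes, and the median was 0.090. Mbtps2, the protease of the last cleavage of SREBPs, had 19.6, 17.0 and 16.5 CPM against 18.6, 31.5 and 18.1 CPM, so that its log2 fold change of 0.36 rested on Nsd2 Vil-KO replicate 2. Insig2, the relative of Insig1, had 37.1, 37.2 and 36.0 against 37.9, 39.2 and 40.7 CPM. Its genotypes did not overlap, but the log2 fold change was 0.094 (standard error 0.15). Rnf139, a ubiquitin ligase, differed by −0.14 on the log2 scale (standard error 0.22).

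Of 5 SREBP2 targets in sterol uptake and transport, 4 passed the filter on low counts. Of these 0 met the screening criterion, beside 3.29% of all genes, and all 4 log2 fold changes were below 0 (median −0.15). In the 4 libraries without Xist 0 met the criterion, beside 11% of all genes, with 3 of 4 below 0 and a median of −0.065. Npc1l1, the sterol importer of enterocytes, did not pass and had at most 1.44 CPM. For Stard4, a cytosolic sterol carrier, the log2 fold change was −0.25 ± 0.20 (standard error) and for Tmem97 −0.12 ± 0.17.

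The 10 genes of the branches after farnesyl diphosphate, which lead to products such as prenyl groups and ubiquinone, had a median log2 fold change of −0.054. None met the screening criterion, beside 3.29% of all genes. In the 4 libraries without Xist 0 met it, beside 11% of all genes (median −0.027). Pdss2, a subunit of the synthase of the ubiquinone side chain, had 20.6, 22.3 and 41.0 CPM in Nsd2 f/f and 21.5, 16.5 and 26.0 CPM in Nsd2 Vil-KO (log2 fold change −0.39, standard error 0.32). Its high value was that of Nsd2 f/f replicate 3, as for Hmgcs1. Pggt1b, a prenyltransferase subunit, gave −0.27, Rabggtb −0.12 and Fntb −0.11.

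Fatty acid synthesis, which is driven mainly by the relative SREBP1, was followed with 12 genes, of which 11 passed the filter. Beside 3.29% of all genes, 1 of these met the screening criterion. This was Acss2, which makes acetyl-CoA from acetate, with 98.9, 112 and 151 CPM in Nsd2 f/f and 67.2, 73.7 and 82.1 CPM in Nsd2 Vil-KO. The genotypes did not overlap, with a log2 difference of −0.70 ± 0.21 (standard error; adjusted p = 0.992, edgeR). It also met the criterion in the 4 libraries without Xist, at −0.49 (standard error 0.13, adjusted p = 0.366, edgeR). There 2 of the 11 genes met it, 1 in each direction, beside 11% of all genes. Acly, the other source of cytosolic acetyl-CoA, had 414, 591 and 502 against 342, 128 and 416 CPM (log2 fold change −0.77, standard error 0.42). Me1, the malic enzyme, had 6.14, 5.20 and 4.44 CPM in Nsd2 f/f and 8.73, 21.7 and 3.22 CPM in Nsd2 Vil-KO, the highest value standing in replicate 2 (log2 fold change 1.08, standard error 0.64). Fads2, a fatty acid desaturase, had 524, 597 and 534 against 451, 108 and 570.1 CPM (log2 fold change −0.55, standard error 0.54). The list of 12 summed to 795 CPM in Nsd2 Vil-KO replicate 2, against 3342 to 4247 CPM in the other 5 libraries. Named after their values were seen, the stearoyl-CoA desaturases Scd1 and Scd2 had 0.777 and 207 CPM in that library, against 43.5 to 94.6 CPM and 1642 to 2334 CPM elsewhere. Srebf1, also named after its values were seen, had 68.6 CPM there and between 139.9 and 219.9 CPM in the other 5.

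Target genes of the liver X receptors, which answer to surplus sterol, formed the last list. None of 6 met the screening criterion, beside 3.29% of all genes. The median log2 fold change was −0.26 with 3 above and 3 below 0. Abca1, the cholesterol exporter, had 12.8, 5.02 and 2.75 CPM in Nsd2 f/f and 4.68, 2.61 and 2.60 CPM in Nsd2 Vil-KO (log2 fold change −1.07, standard error 0.60). Abcg1, another exporter, had 16.9, 12.5 and 1.53 against 9.26, 0.499 and 9.66 CPM, low in both libraries with Xist. The log2 fold change was −0.56 ± 0.43 (standard error) for Mylip, a ubiquitin ligase, and 0.19 ± 0.43 for Abcg5, a sterol pump of enterocytes. In the 4 libraries without Xist, where 11% of all genes met the criterion, 2 of the 6 did, Abcg1 lower (−0.63) and Abcg5 higher (0.47).

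**Figure D5:**
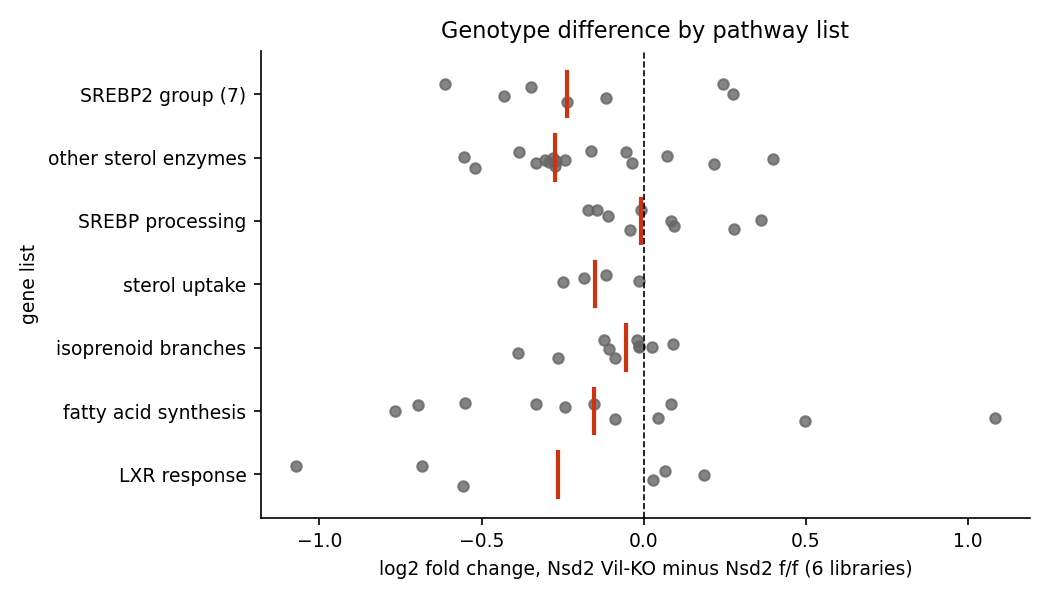
Log2 fold change (x axis, Nsd2 Vil-KO minus Nsd2 f/f, 6 libraries) of every tested gene in the SREBP2 group and 6 related lists, with red bars for list medians and the dashed line for the median of all genes tested (0.0012). The medians of the SREBP2 group (−0.24) and of the other sterol enzymes (−0.27) lie left of the line, and single genes of each list spread to both sides of it except in the sterol uptake list.

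Genes with a profile like that of the group were ranked by the root mean square difference from its median profile, over 6 libraries and 13341 genes, after each gene was centred on its mean log2 CPM. The nearest were Atpsckmt (0.057 on the log2 scale), Snx19 (0.070), Brd9 (0.076), Il17rc (0.077) and Sars2 (0.080). Each had its lowest value in Nsd2 Vil-KO replicate 2 and its highest in Nsd2 Vil-KO replicate 3. For Il17rc these values were 123 and 222 CPM. This pattern followed largely from the choice of genes by likeness. The median profile was itself lowest in Nsd2 Vil-KO replicate 2 (−0.63, centred log2 CPM) and highest in Nsd2 Vil-KO replicate 3 (0.25). Genes of the group make up this profile, so their own places in the ranking are not independent of it. Of the group itself, Sqle lay nearest to the median profile, in place 24, followed by Cyp51 in place 247 and Idi1 in place 343, and then by Fdps in place 1511, while Hmgcs1, Srebf2 and Insig1 were in places 2822, 3700 and 3824.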

How the data were processed

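RNA-seq counts of 6 libraries were used, 3 per genotype, grouped by the sample titles. The deposited file gives raw counts by Ensembl gene as whole numbers. According to the methods, polyA RNA was sequenced in paired ends, trimmed with Cutadapt and Trimmomatic and aligned to GRCm38 with HISAT2. The submitters' processing notes name HISAT2 and mm10. The counting program is not given in the sources used here, and the labels and methods name different library kits.

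The study's FPKM and Ballgown test was replaced by a count test, since counts were at hand. edgeR 4.0.16 in R 4.3.3 was run with TMM, filterByExpr and the robust quasi-likelihood test over all genes, with Benjamini-Hochberg adjustment. DESeq2 1.42.0 and limma 3.58.1 (log2 of CPM + 1) were alternatives. Log2 CPM used a prior count of 2. A library counted as holding Xist above 1 CPM. Interval and p-value cover the spread between libraries. The scripts were tested on simulated data. Of all 55487 genes in the count table, 99.5% were in GENCODE vM21. Figures used matplotlib.

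The 7 genes, the 6 other pathway lists and the 8 lists of cell type markers were chosen with earlier results of these data known. Named genes were the 7, the targeted gene, those past the screening criterion or otherwise with the smallest p in each pathway list (at most 4), and the 5 with the nearest profile. Some genes counted within the pathway lists are not reported singly here. Alternatives changed the normalisation, filter, tool, covariates and libraries; adding the counts of genes that share sequence was chosen after the data were seen, as was the interaction test.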

Additional observations from a re-analysis of the deposited data

Results flagged for a closer look

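The genotype difference of several lipid genes was not the same in the pair of libraries with Xist as in the 4 libraries without it, by an interaction term tested in edgeR over 14650 genes (adjusted p below 0.05, met by 12% of them). The pair holds 1 library per genotype, and the term assumes that these vary like the others. Negative values mean a lower Nsd2 Vil-KO level, relative to Nsd2 f/f, in the pair with Xist, on the log2 scale. In the SREBP2 group the term was −1.35 for Hmgcs1. Among the other sterol enzymes it was −1.47 for Tm7sf2, −0.86 for Ebp and −1.07 for Dhcr7. In the list of SREBP processing, which also held the SREBP gene Srebf1, it was −1.06 for Srebf1 and −0.81 for Mbtps1. Pdss2 had −1.46. In fatty acid synthesis it was −1.56 for Acly, −1.77 for Acaca, −5.95 for Scd1, −3.09 for Scd2 and −2.17 for Fads2. All the terms named here were negative, and only genes past that limit are named. Counting every tested gene, the term was below 0 for 6 of 7 in the SREBP2 group and 14 of 16 other sterol enzymes. It was below 0 for 5 of 9 genes in the SREBP processing list, 3 of 4 sterol uptake genes and 5 of 10 isoprenoid genes. The same held for 9 of 11 fatty acid genes, 5 of 6 LXR response genes and 7068 of all 14650 genes. The cause was not tested.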

How the results depend on the processing

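The group had 0 genes past the screening criterion in 19 of 21 alternatives, 1 in the 4 libraries without Xist (Srebf2, higher) and 1 without Nsd2 Vil-KO replicate 3 (Cyp51, lower), so that leaving out single libraries gave 0 to 1. Its median log2 fold change stayed below 0 throughout, from −0.46 to −0.014 with libraries left out. The count of the 16 other sterol enzymes, 1 in the reported fit, was 0 with library size only, without the filter on low counts, with DESeq2, with a replicate block, in the 4 libraries without Xist and at a fold change above 2. It was 2 once Xist entered as a covariate and between 0 and 2 with libraries left out. Their median stayed between −0.40 and −0.030. The direction changed for Fdps, at −0.047 without Nsd2 Vil-KO replicate 3 (0.46 without replicate 2) and −0.23 with the counts of genes that share sequence added, and Sqle, at 0.17 in the 4 libraries without Xist and 0.14 without Nsd2 Vil-KO replicate 2 (−0.40 without replicate 3). The cause was not tested. The count of members with a differing effect by Xist stayed at 1 in all 7 alternatives run for it, and the smallest permutation p stayed at 0.2 in 4. No member had an adjusted p below 0.05 in any of 19 alternatives.

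With a replicate block, the median of the group was −0.28 and 0 of 7 genes met the criterion. Deviations of libraries with the same number correlated at 0.32, −0.35 and −0.11 over genes, so the numbers were not taken to pair the libraries. Over all genes, 482 of 14650 (3.29%) met the criterion in the reported fit. With the replicate block 303 (2.07%) met it, and with the Xist covariate 1145 (7.82%). The number of genes tested differed in the other settings. Without the filter on low counts 861 of 26360 (3.27%) met it, a share close to that of the reported fit. The 4 libraries without Xist gave 1646 of 15030 (11%), and leaving out Nsd2 Vil-KO replicate 2 gave 769 of 15139 (5.08%).

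Depth limited Fdps most, with 123 to 347 counts per library; the lowest count of the other 6 genes was 690.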
